A study of Rattus norvegicus with 24 samples.

Results

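The effect of the drug vehicle alone was examined by comparing DMSO-treated with untreated cells at both stages of the oligodendrocyte lineage that were sequenced. This used 16 of the 24 libraries of the series, chosen by their treatment labels. They comprised 4 untreated and 4 DMSO-treated libraries of oligodendrocyte precursor cells (OPCs), and 4 untreated and 4 DMSO-treated libraries of oligodendrocytes (OLs). OPCs were collected after 24 hours in proliferation medium, which held fibroblast growth factor, platelet-derived growth factor and neurotrophin 3. OLs were kept for the same 24 hours in that medium and then for 72 hours in a differentiation medium with insulin and thyroxine. DMSO was present at 0.04% throughout in the treated groups, and the untreated groups received neither vehicle nor drug. The cells were primary cells from the cortices of Sprague Dawley rat pups, purified in culture, and a replicate was a culture from an independent litter. Libraries with the same replicate number shared a date code in their names. The study compared cells treated with the antiretroviral drug dolutegravir (DTG) with DMSO-treated cells, so this comparison asked where that reference stood relative to cells without solvent.

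OPCs divide under growth factors and carry the platelet-derived growth factor receptor Pdgfra and the proteoglycan NG2, encoded by Cspg4. When the growth factors are withdrawn and thyroid hormone is added, they leave the cell cycle and switch on genes of the myelin membrane such as Mbp and Mog. The integrated stress response (ISR) is a pathway in which phosphorylation of eIF2α lowers general translation while the transcription factor Atf4 is translated more, and Atf4 in turn drives genes of amino acid supply and feedback regulators such as Trib3. DMSO is an organic solvent used to dissolve drugs, and at high doses it is known to affect the differentiation, redox state and osmotic balance of cultured cells.

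Each of these 16 libraries had 13241279 to 18499994 counts on genes. The untreated libraries of replicate 3, at both stages, were counted on another gene annotation than the other 22 libraries of the series. The annotations held 32883 and 30560 gene identifiers, of which 21651 were shared and used here, and 28.3% of the shared ones had exonic lengths within 1% of each other. Between the untreated and the DMSO-treated library of replicate 3, 419 of 11828 genes in OLs and 446 of 12357 genes in OPCs differed by more than 8-fold. The other replicate numbers had between 0 and 6 such genes. For 213 genes the untreated library was more than 8-fold higher at both stages, and for 162 it was more than 8-fold lower at both. For example, Rpl22, which encodes a ribosomal protein, was at 119, 70.5, 0 and 102 CPM (read counts relative to the scaled library size, on the usual CPM scale) in untreated OLs of replicates 1 to 4, and at 119, 73.1, 78.5 and 102 CPM in DMSO-treated OLs. The zero stood alone, and Rpl22 was again near zero in untreated OPCs of replicate 3 at 0.136 CPM. Results were therefore also computed without replicate 3, and these values are given beside several of the results.

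The stage labels matched the stage markers. Mbp, which encodes myelin basic protein, ranged from 3627 to 10269 CPM in the 8 OL libraries and from 158 to 366 CPM in the 8 OPC libraries. Pdgfra ranged from 117 to 287 CPM in OLs and from 367 to 930 CPM in OPCs. Symbols were available for only part of the markers of other cell types. Cd68, the only microglial marker of 12 with an identifier, was below 0.5 CPM in OLs and between 0.946 and 2.99 CPM in OPCs, with overlapping treatment groups. Rgs5, the only vascular marker of 10 with an identifier, was at 0 to 0.297 CPM in OLs and at 0.156 to 7.65 CPM in OPCs. The summed level of 6 neuronal markers of 10 was 69.7 to 163 CPM in untreated and 69.6 to 111 CPM in DMSO-treated OLs, and Map2, a microtubule protein, made up most of it. In OPCs this sum was 181 to 428 CPM untreated and 210 to 499 CPM with DMSO. Sox9, an astrocyte marker that OPCs also express, was at 87.0 to 101 CPM in untreated and 75.0 to 90.2 CPM in DMSO-treated OLs. In these bulk samples, fewer cells of a type and less RNA per cell cannot be told apart.

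No gene passed both thresholds, an adjusted p below 0.05 and more than a 1 log2 unit change, at either stage. In OLs, edgeR's quasi-likelihood test called 0 of 11893 genes (0%), with a lowest adjusted p of 0.654. Without adjustment, 178 genes were higher with DMSO at p under 0.05 (1.5%) and 693 were lower (5.83%). These numbers depended on single libraries, with 102 higher and 574 lower without replicate 3, 401 and 884 without its untreated library alone and 66 and 396 without its DMSO-treated library alone. In OPCs, 0 of 12182 genes were called (0%), and without adjustment 3 genes were higher (0.0246%) and 67 were lower (0.55%). This is fewer than chance alone would give at an unadjusted p under 0.05, so this test was conservative in OPCs. It did not pair libraries by litter. With the litter as a block in the fit, 45 genes were higher and 42 lower, and without replicate 3 as well 205 and 63. In OLs these fits gave 390 higher and 871 lower with the block, and 502 and 1549 without replicate 3 as well. The number thus stayed smaller in OPCs when litters were paired, but such counts do not measure the size of the DMSO effect. DESeq2's Wald test also called 0 genes at both stages, with 938 genes at an unadjusted p under 0.05 in OLs and 48 in OPCs. For comparison, the same test on the same identifiers called 63 of 11841 genes (0.532%) between DTG-treated and DMSO-treated OLs, which share the DMSO-treated libraries with the vehicle comparison. Between DTG-treated and DMSO-treated OPCs it called 0 of 12280. The DTG-treated and DMSO-treated libraries share 1 annotation, whereas the vehicle comparison includes untreated replicate 3 on another. These counts are therefore not like for like.

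The precision of these comparisons depended on expression. Among 6737 genes with a mean above 16 CPM in OLs, 91.8% had a 95% interval for DMSO against untreated that lay wholly between a halving and a doubling. In OPCs this share was 82.9% of 7814 genes. Over all genes tested, the shares were 76.4% in OLs and 67.3% in OPCs. Effects within these bounds, and larger ones where the interval was wider, could go undetected for many genes at this number of litters.

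Litters differed from each other by more than the DMSO-treated and untreated cultures of the same litter, most clearly in OPCs. Among well expressed genes in replicates 1, 2 and 4, the median absolute log2 difference between DMSO-treated and untreated OPCs of 1 litter was 0.14, against 0.25 between untreated OPCs of different litters. In OLs these values were 0.16 and 0.21. When replicate 3 was left out, the first 2 principal components of the OPC libraries placed the untreated and the DMSO-treated library of each litter side by side. In OLs they did so for replicate 1, while the pairs of replicates 2 and 4 lay farther apart.

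**Figure D1:**
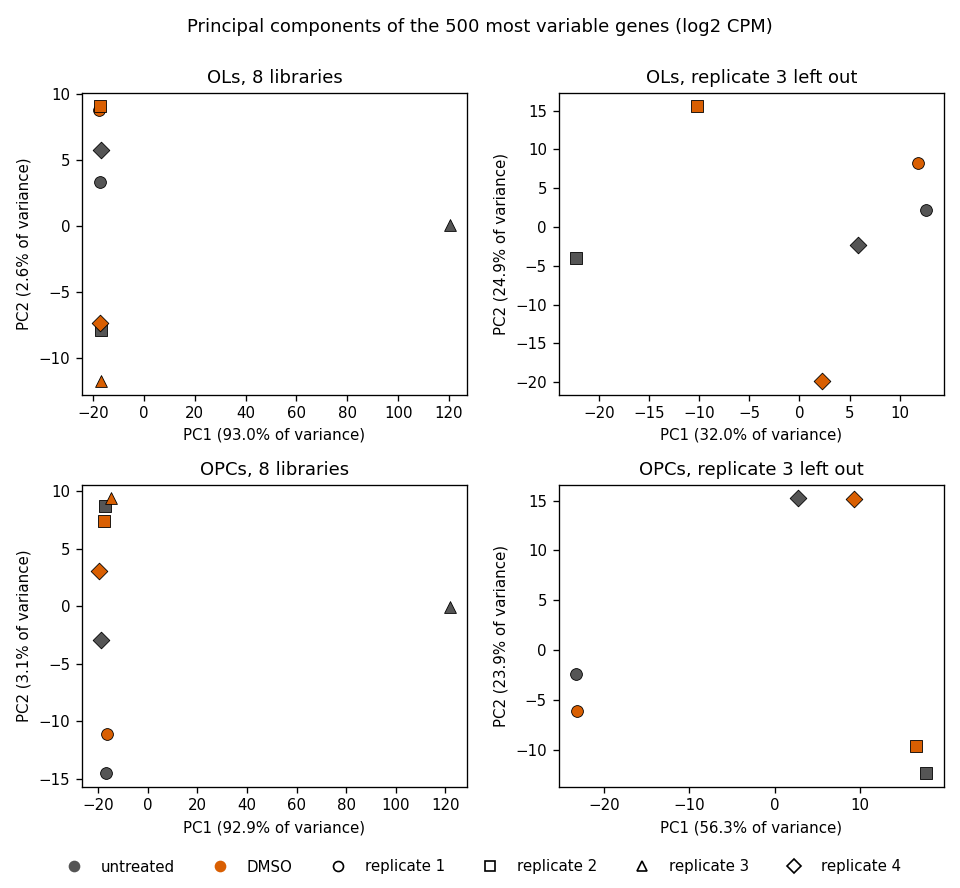
First and second principal component of log2 CPM over the 500 most variable genes, for OLs (top) and OPCs (bottom), with all 8 libraries (left) and without replicate 3 (right). Each point is a library, with colour for treatment and shape for replicate. With all libraries PC1, at 93.0% and 92.9% of the variance, separates untreated replicate 3 from the other 7, and without replicate 3 the OPC libraries pair by litter.

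No difference in the library measures between treatments passed the test. The share of counts on ERCC transcripts, synthetic RNAs added to equal amounts of total RNA, was 3.18% ± 1.26 in untreated and 4.20% ± 2.13 in DMSO-treated OLs (SD, n = 4; two-sided exact permutation test, p = 0.486, adjusted p = 0.943). In OPCs it was 1.96% ± 0.564 untreated and 2.12% ± 1.00 with DMSO (n = 4; exact permutation p = 0.8). The mitochondrial share of gene counts was 2.57% ± 0.298 in untreated and 2.41% ± 0.218 in DMSO-treated OLs (n = 4; exact permutation p = 0.486). It was 3.44% ± 1.36 in untreated and 3.37% ± 1.21 in DMSO-treated OPCs (n = 4; exact permutation p = 0.914). For PC1 and PC2 the exact permutation p-values ranged from 0.143 to 0.943. PC1 set untreated replicate 3 apart from all other libraries at both stages, so its test could not bear on DMSO. The smallest p that 4 against 4 libraries allow is 0.0286, and the adjusted p of each of the 8 tests was 0.943. The ERCC share reached 7.19% in DMSO-treated OLs of replicate 3 and lay between 2.19% and 3.99% in the other 3 DMSO-treated OL libraries.

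Myelin genes showed no called difference. Mbp was at 6267, 9190.3, 8571 and 3627 CPM in untreated OLs of replicates 1 to 4 and at 7012, 10269, 9324 and 3847 CPM in DMSO-treated OLs. DMSO-treated cells were slightly higher in each of the 4 litters, and the litter of replicate 4 was lowest with and without DMSO. For Mbp the log2 fold change was 0.14 ± 0.35 (SE; 95% interval -0.65 to 0.92; edgeR adjusted p = 0.916). Mog, a protein of the outer myelin membrane, was at 39.9, 42.3, 27.8 and 30.7 CPM in untreated and at 43.6, 46.8, 43.9 and 30.7 CPM in DMSO-treated OLs. The lowest untreated value of Mog was that of replicate 3, where untreated OPCs were also low at 0.407 CPM against 4.36 to 5.68 CPM in the other untreated OPCs. Its log2 fold change in OLs was 0.23 ± 0.18, and 0.10 without replicate 3.

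Gpd1, which encodes a glycerol phosphate dehydrogenase of lipid synthesis, came nearest to a difference among these genes. It was at 41.7, 35.1, 22.3 and 35.7 CPM in untreated OLs and at 53.3, 50.0, 31.9 and 55.1 CPM in DMSO-treated OLs. Each DMSO-treated culture was higher than its untreated partner, although the 2 groups overlapped. The log2 fold change was 0.50 ± 0.23 (95% interval -0.01 to 1.00; edgeR adjusted p = 0.654). Within litters the log2 ratios of Gpd1 were 0.35, 0.51, 0.51 and 0.63. With the litter as a block the adjusted p of Gpd1 was 0.464 in edgeR and 0.0176 in DESeq2, and with replicate 3 also left out it was 0.063 and 0.441. Unpaired and without replicate 3, the edgeR unadjusted p of Gpd1 was 0.00598 and its adjusted p 0.690. Enpp6, a phosphodiesterase of newly formed oligodendrocytes, was at 46.5 to 102 CPM untreated and 43.3 to 110 CPM with DMSO, with a log2 fold change of 0.07 ± 0.31. Adamts4, a protease of mature oligodendrocytes, had a log2 fold change of -0.12 ± 0.37. Gjc3, a connexin of oligodendrocytes, was at 18.3, 43.4, 104 and 10.7 CPM untreated and at 20.7, 33.2, 27.3 and 9.45 CPM with DMSO. Its one high value was untreated replicate 3, and its log2 fold change of -0.96 ± 0.64 was -0.19 without that replicate. Only these 6 of the 28 listed myelin genes had an identifier. Their median log2 fold change in OLs was 0.10, against -0.04 over all genes tested, and 0 of 6 reached an unadjusted p under 0.05. In OPCs, where myelin genes are low, the median was -0.05 and again 0 of 6 did.

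Precursor markers overlapped between treatments as well. Pdgfra was at 860, 930.0, 768 and 439 CPM in untreated OPCs and at 908, 722, 829 and 367 CPM in DMSO-treated OPCs. The litter of replicate 4 was lowest under both conditions, and DMSO-treated cells were higher in 2 of 4 litters. The log2 fold change was -0.08 ± 0.32 (95% interval -0.81 to 0.64). Cspg4 was at 229 to 398 CPM in untreated and 251 to 365 CPM in DMSO-treated OPCs, with a log2 fold change of -0.01 ± 0.23. Fabp7, a fatty acid binding protein of neural progenitors, was at 240.2, 436, 1168 and 262 CPM untreated and at 300, 454, 1128 and 247 CPM with DMSO. Replicate 3 was well above the other litters in both groups, and the treated and untreated values of each litter lay close together. In OLs, Pdgfra was at 287, 151, 140 and 272 CPM untreated and at 269, 155, 117 and 137 CPM with DMSO. The largest gap was in replicate 4, and the log2 fold change was -0.33 ± 0.31 (95% interval -1.03 to 0.38). Of 7 precursor markers with an identifier, 7 were tested in OPCs and 5 in OLs, and none reached an unadjusted p under 0.05. Their median log2 fold change was -0.02 in OPCs and -0.10 in OLs, or -0.18 in OLs without replicate 3. Fabp7 in OLs was at -0.06 ± 0.23 with all libraries and at -0.41 without replicate 3 (95% interval -0.79 to -0.03; edgeR unadjusted p = 0.0383, adjusted p = 0.690).

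**Figure D2:**
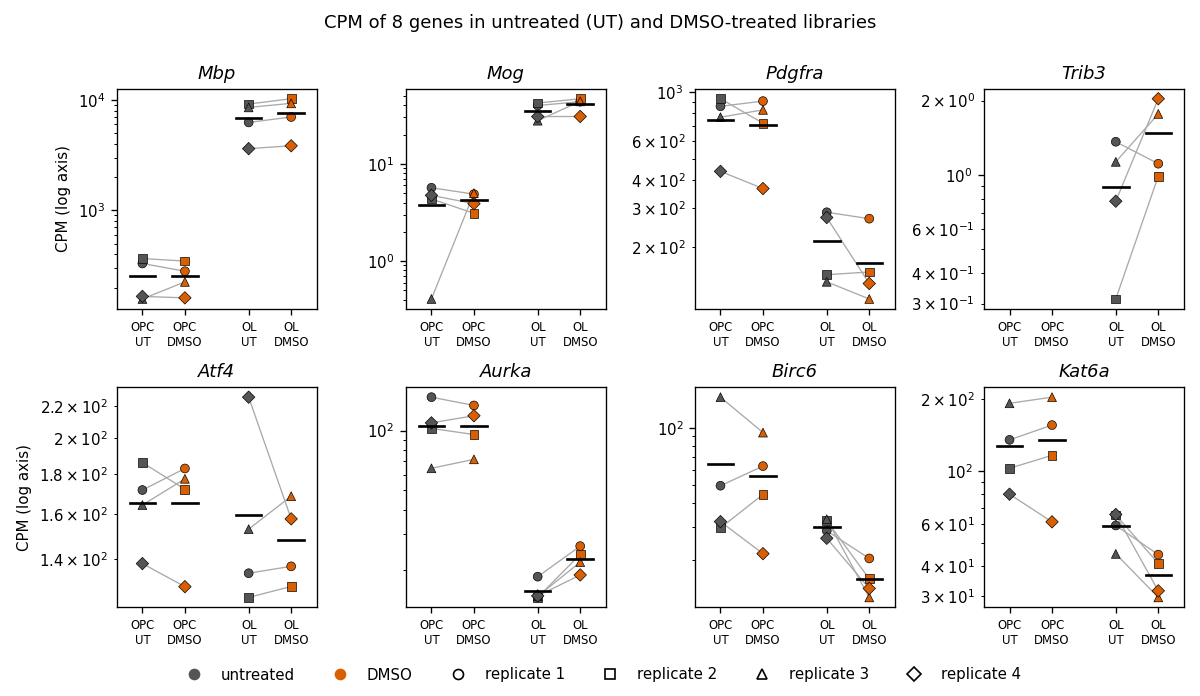
CPM on log axes of 8 genes in untreated (UT, grey) and DMSO-treated (orange) OPCs and OLs. Shapes mark replicates, grey lines join libraries of the same litter and black bars are group means (n = 4); Trib3 is drawn for OLs only, since it was below the count filter in OPCs. Mbp, slightly higher with DMSO in each OL litter, and Pdgfra mainly follow the litter. Aurka is higher, and Birc6 and Kat6a are lower, in every DMSO-treated OL culture. Aurka and Birc6 meet a naming rule that asks for 1 direction in 4 litters, and Kat6a was named after its values were seen. Of all genes tested in OLs, 14.4% were higher and 13% lower in all 4 litters.

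A wider set of stage genes was taken from the DTG-treated libraries, which the vehicle comparison did not use. Of 12223 genes tested, 2010 were higher in DTG-treated OLs than in DTG-treated OPCs and 2809 were lower, at the same thresholds. Among the genes higher in OLs, 1996 were tested for DMSO in OLs and had a median log2 fold change of 0.11, with 31.7% of them below 0. The 2534 genes higher in OPCs had a median of -0.24, with 77.9% below 0. The 7220 genes of neither class had a median of -0.02. The difference did not come from all litters alike. The genes higher in OPCs had medians of -0.01, -0.35, 0.02 and -0.55 in replicates 1 to 4, so only replicates 2 and 4 were clearly below 0. The genes higher in OLs had medians of 0.01, 0.06, 0.08 and 0.34. Replicate 4 thus had the widest gap between the classes, while replicate 1 showed almost none.

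In OPCs the same classes varied in sign between litters. Genes higher in OPCs had medians of 0.18, 0.11, -0.16 and -0.18 in replicates 1 to 4, and genes higher in OLs had medians of -0.16, 0.07, 0.13 and 0.16. Over all 4 litters the medians were -0.03 and 0.06. These values are descriptions without a test, since the classes were set up after the vehicle results were known.

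**Figure D3:**
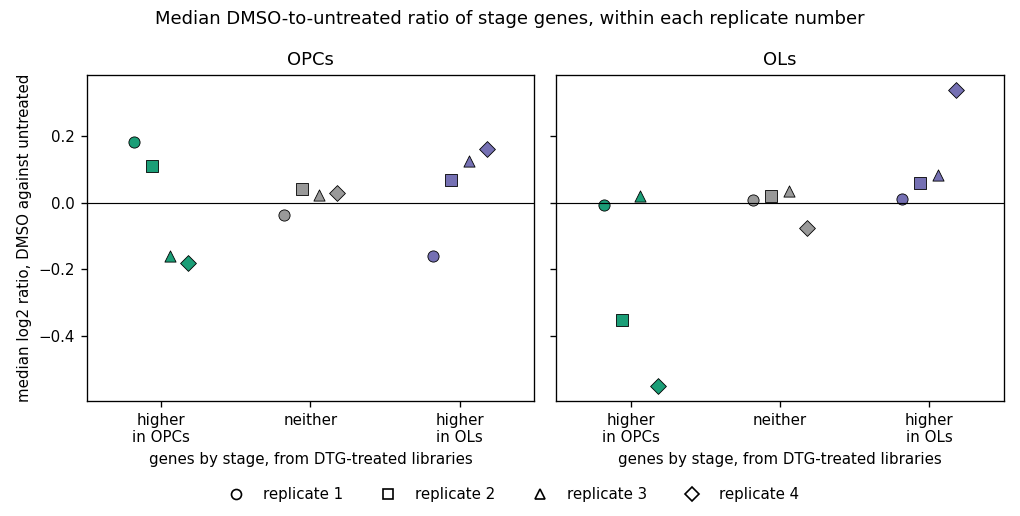
Median log2 ratio of DMSO-treated to untreated libraries within each replicate number, for genes higher in OPCs, genes higher in OLs and genes of neither class, in OPCs (left) and OLs (right). Each point is a litter. In OLs the genes higher in OPCs range from -0.55 to 0.02, and in OPCs the sign varies with the litter.

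No gene of the ISR and the unfolded protein response was called. Of 32 listed genes 22 had an identifier, and of these 22 were tested in OLs and 21 in OPCs. None reached an unadjusted p under 0.05 at either stage, and the median log2 fold change was 0.04 in OLs and 0.04 in OPCs. Single genes ranged from -0.49 to 0.73 in OLs and from -0.29 to 0.54 in OPCs. Atf4, the central transcription factor, was at 134, 125, 153 and 226 CPM in untreated OLs and at 137, 129, 169 and 158 CPM in DMSO-treated OLs. The highest value was untreated replicate 4 and the other 7 libraries overlapped. For Atf4 the log2 fold change was -0.11 ± 0.19 (95% interval -0.53 to 0.32) in OLs and 0.00 ± 0.17 (95% interval -0.39 to 0.39) in OPCs.

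Trib3, a pseudokinase that is an Atf4 target and inhibitor, was at 1.36, 0.313, 1.13 and 0.781 CPM in untreated OLs and at 1.11, 0.987, 1.77 and 2.04 CPM in DMSO-treated OLs. DMSO-treated cells were higher in 3 of 4 litters and the groups overlapped. The log2 fold change was 0.70 ± 0.44 (95% interval -0.28 to 1.68; edgeR adjusted p = 0.664). DTG-treated OLs differed from the same DMSO-treated OLs by 4.08 ± 0.40 on the log2 scale (edgeR adjusted p = 0.000581). In OPCs Trib3 had only 4 to 20 reads per library and was not tested.

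Atf5, a factor related to Atf4, was at 147, 261, 122 and 195 CPM in untreated and at 160, 249, 461 and 328 CPM in DMSO-treated OLs. The gap was widest in replicate 3, and the log2 fold change of 0.73 ± 0.33 (adjusted p = 0.654) was 0.29 without that replicate. Chac1, a glutathione-degrading Atf4 target, was at 8.88, 24.6, 29.3 and 12.4 CPM untreated and at 10.8, 25.7, 33.6 and 20.3 CPM with DMSO in OLs, higher in each litter. Its log2 fold change was 0.26 ± 0.42 for DMSO against untreated and 2.42 ± 0.28 for DTG against DMSO. Cebpb, a partner of Atf4, had a log2 fold change of 0.24 ± 0.23 in OLs and 0.37 ± 0.32 in OPCs. Of the amino acid genes, Asns, which makes asparagine, had a log2 fold change of 0.02 ± 0.26 in OLs and 0.04 ± 0.20 in OPCs.

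**Figure D4:**
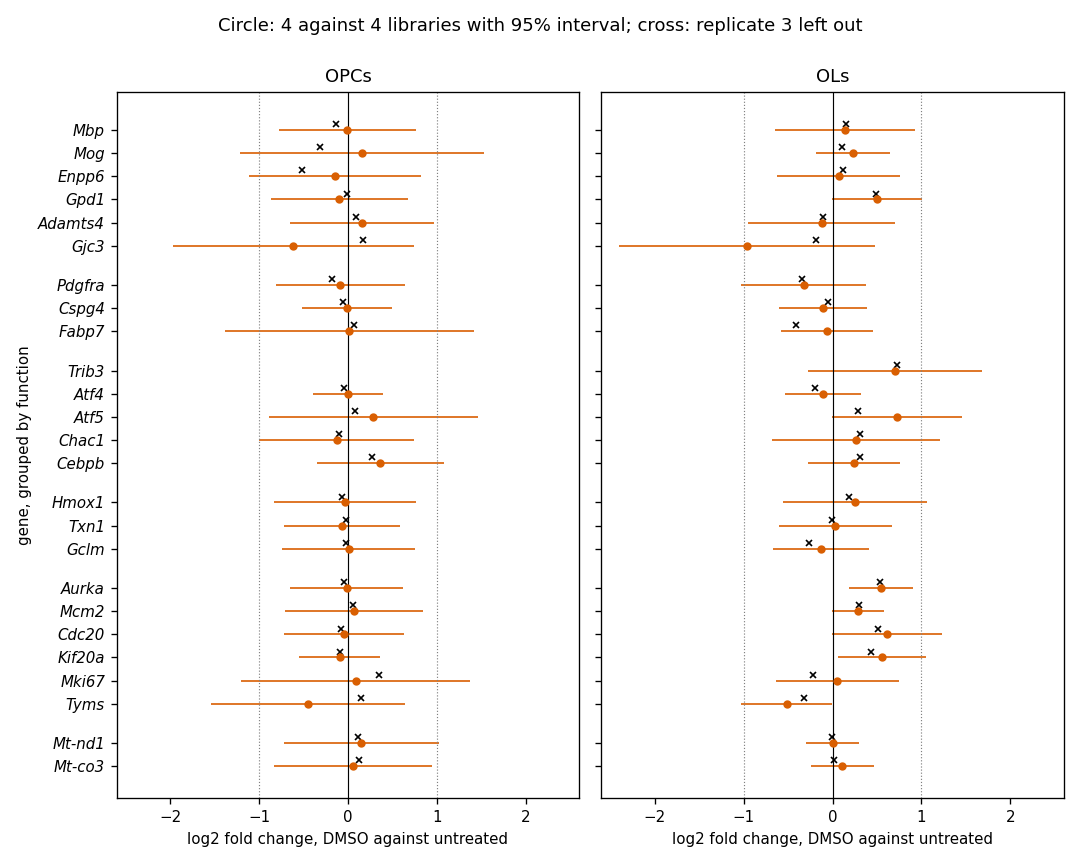
Log2 fold change of DMSO-treated against untreated OPCs (left) and OLs (right) for genes of 6 functional groups. Circles and bars are the fit of 4 against 4 libraries with its 95% interval, crosses the fit without replicate 3 and dotted lines the threshold of 1. Most intervals include 0, those of Aurka and Kif20a in OLs lie above it and that of Tyms below, and circle and cross lie far apart for Gjc3, whose untreated replicate 3 value stands alone.

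Defence genes against oxidative stress, heat and solvents were tested in small numbers. Hmox1, the inducible heme oxygenase, was at 89.8, 49.9, 74.4 and 156 CPM in untreated OLs and at 93.8, 69.0, 102 and 174 CPM in DMSO-treated OLs. It was higher in each litter by a small amount, with a log2 fold change of 0.25 ± 0.36, while in OPCs the value was -0.03 ± 0.35. Txn1, which encodes thioredoxin, had a log2 fold change of 0.03 ± 0.29 in OLs and -0.06 ± 0.29 in OPCs. All 5 oxidative stress genes with an identifier had an unadjusted p of 0.05 or more at both stages, with a median of 0.03 in OLs and 0.01 in OPCs. Hspd1, the mitochondrial chaperonin, had a log2 fold change of -0.17 ± 0.21 in OLs and 0.10 ± 0.42 in OPCs. Msrb3, a methionine sulfoxide reductase, was between 0.147 and 1.20 CPM in the OL libraries, with a log2 fold change of -0.82 ± 0.57, and had one of 0.17 ± 0.37 in OPCs.

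Other lists also gave no gene with an unadjusted p under 0.05. Dnmt1, the maintenance DNA methyltransferase, was at 78.9 to 107 CPM in untreated and 70.2 to 102 CPM in DMSO-treated OLs, and its log2 fold change was -0.05 ± 0.15. In OPCs the value for Dnmt1 was -0.01 ± 0.31. Of the immediate early genes, Egr1 was at 13.5, 6.97, 6.46 and 7.34 CPM in untreated OLs and at 8.94, 4.34, 5.23 and 6.50 CPM with DMSO. It was lower in each of 4 litters with overlapping groups, and the log2 fold change was -0.46 ± 0.31 in OLs and 0.08 ± 0.37 in OPCs. For 23 genes of the mitochondrial chromosome tested in OLs the median log2 fold change was 0.00, and for 24 in OPCs it was 0.06. Mt-nd1, a complex I subunit, was at 2139 to 2914 CPM in untreated and 2168 to 2666 CPM in DMSO-treated OLs. The calcium pump Atp2a3 and the lipid flippase Atp10b, from the list of osmotic and ion transport genes, had log2 fold changes of 0.13 ± 0.29 and 0.03 ± 0.35 in OLs. None of the 20 listed genes of cholesterol synthesis and uptake had an identifier.

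No cell cycle gene was called in OLs. Of 29 genes tested, 25 had a log2 fold change above 0, against 5335 of all 11893 genes, and the median was 0.32, or 0.17 without replicate 3, against -0.04 over all genes tested. Unadjusted p was under 0.05 for 3 genes that were higher (Aurka, Aurkb and Kif20a) and 1 that was lower (Tyms), beside 1.5% and 5.83% of all genes. Without replicate 3 the edgeR unadjusted p was 0.0237 for Aurka, 0.0745 for Aurkb, 0.106 for Kif20a and 0.272 for Tyms. In OLs 12 of the 29 were higher in all 4 litters, as were 14.4% of all genes tested, against 13% lower. Aurka, a kinase of the mitotic spindle, was at 18.4, 14.5, 14.7 and 14.7 CPM in untreated and at 26.2, 23.8, 21.8 and 18.8 CPM in DMSO-treated OLs. All 4 DMSO-treated libraries lay above all 4 untreated ones, as was the case for 2.46% of all genes tested in OLs. The log2 fold change of Aurka was 0.54 ± 0.16 (edgeR adjusted p = 0.654), and in OPCs, where it was at 64.6 to 147 CPM, it was -0.01 ± 0.28.

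Mcm2, a helicase subunit that loads at replication origins, was the other cell cycle gene without overlap. It was at 64.0, 63.8, 63.0 and 46.5 CPM in untreated and at 74.5, 72.9, 75.0 and 67.5 CPM in DMSO-treated OLs, with a log2 fold change of 0.29 ± 0.13. Aurkb, the kinase of the chromosomal passenger complex, had a log2 fold change of 0.73 ± 0.31, and Kif20a, a kinesin of cytokinesis, one of 0.56 ± 0.22. Cdc20, an activator of the anaphase-promoting complex, had a log2 fold change of 0.61 ± 0.28. Tyms, which makes thymidylate for DNA synthesis, had -0.52 ± 0.23, and -0.32 without replicate 3. Mki67, the proliferation antigen, was at 3.51 to 8.45 CPM untreated and 4.00 to 7.21 CPM with DMSO, with a log2 fold change of 0.05 ± 0.31. In OPCs, where Aurka, Mcm2 and Mki67 were higher than in OLs, the median of the 29 was 0.00 and 0 of 29 had an unadjusted p under 0.05. There 0 of the 29 were higher and 2 lower in all 4 litters, against 3.45% higher and 3.83% lower among all genes tested.

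Birc6 and Dennd1b were the named genes among the 5 with the lowest p in OLs that were lower with DMSO in every litter. Birc6, a ubiquitin ligase that inhibits apoptosis, at chromosome 6 from 21950100 to 22092346 with an exonic length of 12090 bases, was at 28.5, 32.3, 32.8 and 26.0 CPM in untreated and at 20.4, 15.9, 12.7 and 14.1 CPM in DMSO-treated OLs. The groups did not overlap, as for 2.77% of all genes tested in this direction. The log2 fold change was -0.92 ± 0.18 (95% interval -1.32 to -0.53; edgeR adjusted p = 0.654). With DESeq2's Wald test it was -0.90 ± 0.19 with an adjusted p of 0.0359, the 1 gene at either stage with an adjusted p under 0.05 in that test, at a change below 1 log2 unit. In OPCs Birc6 was at 29.5 to 145 CPM untreated and 21.6 to 94.4 CPM with DMSO, with a log2 fold change of -0.20 ± 0.59. Dennd1b, a regulator of vesicle traffic at chromosome 13 from 56015901 to 56236677 with an exonic length of 2408 bases, was at 2.46, 2.43, 3.70 and 1.93 CPM in untreated and at 0.978, 0.921, 1.32 and 0.657 CPM in DMSO-treated OLs. It was lower in each litter by a similar ratio, with a log2 fold change of -1.43 ± 0.32 (adjusted p = 0.654). Its exonic length was 6346 bases in the annotation of untreated replicate 3, so the ratio of that litter compares unequal gene models. Without replicate 3 the log2 fold change of Dennd1b was -1.40. Kat6a, a histone acetyltransferase named after its values were seen, was at 59.1, 65.4, 44.9 and 65.8 CPM untreated and at 44.6, 41.0, 29.5 and 31.4 CPM with DMSO, with a log2 fold change of -0.68 ± 0.18. The other 3 of the 5 lower genes, with exonic lengths of 2039 to 5531 bases, and 4 of the 5 higher genes had no symbol.

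Across all genes in OLs the ratio of DMSO-treated to untreated cells was lower the longer the transcript. The median log2 fold change was 0.15 for 1000 genes of up to 1000 bases and -0.36 for 246 genes of 8000 to 12000 bases, of which 92.3% were below 0. For 63 genes over 12000 bases it was -0.47, with litter medians of -0.20, -0.42, -0.57 and -0.62. The order from short to long was thus the same in the 4 litters. In OPCs the medians were 0.06 for the shortest and 0.06 for the longest genes, and the longest genes had litter medians of 0.25, 0.18, -0.01 and -0.16. Put as 1 value per library, the median log2 CPM of the 309 genes over 8000 bases minus that of the 1000 genes up to 1000 bases was 0.37, 0.83, 0.49 and 0.71 in untreated OLs. It was 0.03, 0.22, -0.25 and -0.14 in DMSO-treated OLs, below every untreated library. DTG-treated OLs had -0.04, 0.22, 0.17 and 0.53, which overlapped both groups. In OPCs the values were 1.19, 0.77, 1.86 and 0.47 untreated and 1.38, 0.81, 1.71 and 0.23 with DMSO, so the order followed the litters there. This pattern was found after the values were seen and is given without a test. Measures of RNA integrity were not used here, and the part of RNA quality in the pattern was not tested.

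**Figure D5:**
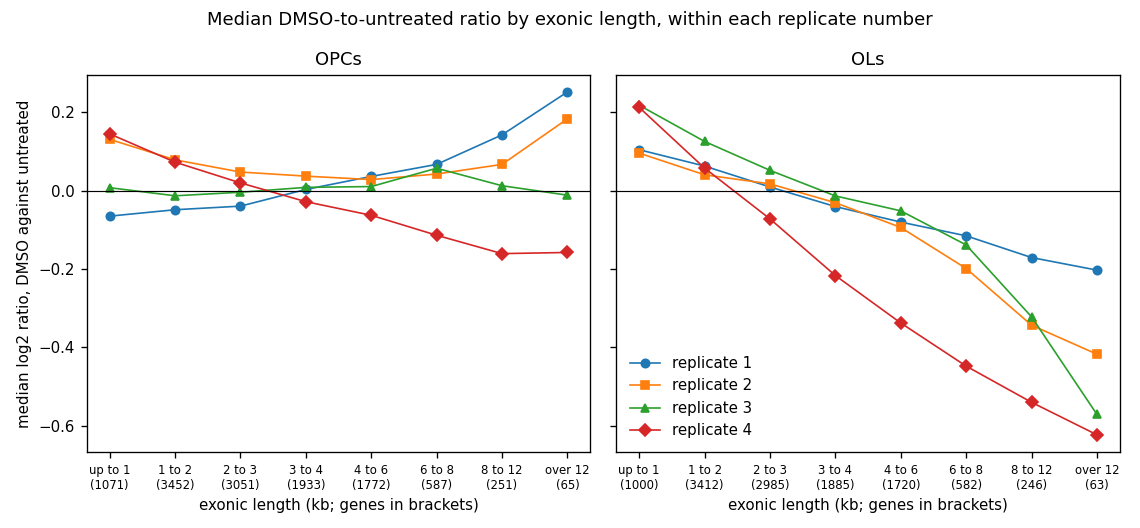
Median log2 ratio of DMSO-treated to untreated libraries within each replicate number, by exonic length of the gene in kilobases, in OPCs (left) and OLs (right). Each line is a litter and the number of genes is in brackets. In OLs every litter declines from the shortest to the longest genes, to between -0.20 and -0.62, whereas in OPCs the litters diverge in both directions.

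In edgeR, genes lower in DMSO-treated OLs passed the adjusted threshold when litters were paired and replicate 3 was left out, and in neither case alone. With the litter as a block, replicates 1, 2 and 4 gave 10 called genes in OLs, 5 higher and 5 lower. Among the lower ones, at low counts, were Dennd1b (-1.41), Ankrd42 (-1.49) and the helicase Wrn. Without a minimum fold change, 154 genes were lower at an adjusted p under 0.05 (1.29% of 11945) and 7 were higher (0.0586%). The 154 genes had a median log2 fold change of -0.61 and a median exonic length of 5253 bases, against 2469 for all genes tested. Among them were Kat6a (-0.71, adjusted p = 0.00547), Birc6 (-0.80, adjusted p = 0.0091), the cytoskeletal linker Macf1 (-0.61, adjusted p = 0.0113), the Wnt co-receptor Lrp6 (-0.80, adjusted p = 0.0157), the cadherin Fat1 (-0.56, adjusted p = 0.0203) and the histone methyltransferase Kmt2a (-0.68, adjusted p = 0.0383), all by edgeR in the blocked fit. Of the 6 neuronal markers, Map2 was among the 154 genes (-0.58, edgeR adjusted p = 0.0157), and so was Dcx, which is not on that list, a microtubule protein of young neurons (-0.62, edgeR adjusted p = 0.0437). In the same fit the listed markers Elavl4, Nefl and Stmn2 were at -0.23, -0.34 and -0.01 (edgeR adjusted p = 0.686, 0.646 and 0.988). Snap25 and Gad2 were below the count filter in OLs when all 4 litters were fitted. Map2 had an exonic length of 10002 bases and Dcx one of 8827, and the part of neurons in this set was not tested. Pttg1, which encodes securin of the anaphase checkpoint, was the 1 named gene that was higher (0.94, adjusted p = 0.0297). These named genes were chosen after their values were seen. In this fit the SEs of Fat1, Macf1 and Map2 were each 0.14, while the SDs of their litter log2 ratios were 0.28, 0.32 and 0.45. For Map2 those ratios were -0.06, -0.89 and -0.79 in replicates 1, 2 and 4. The adjusted p-values of this fit therefore do not measure how well the litters agree for each gene. In OPCs the same fit gave 3 called genes, all lower and without a symbol, and without a minimum fold change 4 genes were lower (0.0329%) and 1 was higher (0.00824%).

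This result depended on the method, on single litters and on an adjustment for exonic length. With an offset for exonic length, added after the data were seen, the same edgeR fit called 4 genes, all higher. Without a minimum fold change it gave 21 genes, 16 of them lower. DESeq2's Wald test with the same block and libraries gave 0 genes at an adjusted p under 0.05. With the block and all 4 litters it gave 52 genes in OLs, 51 of them lower, where edgeR gave 0. Leaving out replicate 1, 2 or 4 as well changed edgeR's 161 genes to 464, 0 and 39. Replicate 3, which that fit did not use, had a median log2 ratio of -0.26 for the 154 lower genes, with 99 of the 154 below 0, against a median of 0.04 and 45.5% below 0 over all genes tested in OLs. Among the 20 of the 154 genes whose exonic lengths agreed within 1% between the annotations, this median was -0.12. In OPCs the 154 genes had litter medians of 0.25, 0.10, -0.12 and -0.31. In replicate 3 of OPCs 108 of the 154 were below 0 (70.1%), against 49.7% of all genes tested. Of the 20 genes of near equal length, 16 were below 0 in that pair of OPCs and 12 in that of OLs. Low ratios of these genes in replicate 3, whose pairs cross annotations, were thus not particular to OLs.

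In OPCs, 65 of the 67 genes lower with DMSO at an unadjusted p under 0.05 differed by more than 8-fold between the untreated and DMSO-treated libraries of replicate 3, the pair with unequal annotations. Without replicate 3, 10 of 12142 genes reached that level, 3 higher and 7 lower, and 2 of the 67 were among them. In OLs the same 8-fold gap held for 65 of the 693 lower genes and 0 of the 178 higher genes. Nmnat3, which makes NAD in mitochondria, was the 1 named gene among the 3 that were higher in OPCs. It was at 1.12, 0.749, 0.679 and 1.30 CPM untreated and at 1.63, 1.40, 1.48 and 2.35 CPM with DMSO. All 4 DMSO-treated values lay above the untreated ones, as for 0.0903% of all genes tested in OPCs, against 0.0821% in the other direction. For Nmnat3 the log2 fold change was 0.83 ± 0.35 (edgeR adjusted p = 1.00), at a level near 1 CPM.

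No gene was called for a difference of the DMSO effect between OLs and OPCs. The interaction over all 16 libraries called 0 of 12613 genes (0%) in edgeR, with 28 genes more positive in OLs at an unadjusted p under 0.05 (0.222%) and 10 more negative (0.0793%). The balance of directions depended on single libraries and on pairing. It turned to 31 and 82 genes without replicate 3, and to 51 and 484 without its untreated OPC library alone. Without DMSO-treated OPC replicate 4 it was 52 and 78. With the litter as a block it was 176 and 292, and with the block and without replicate 3 it was 197 and 771. Each of these settings called 0 genes. DESeq2's Wald test called 0, with 64 genes at an unadjusted p under 0.05. For Aurka the difference, OLs minus OPCs, was 0.60 ± 0.32 on the log2 scale, for Kat6a it was -0.73 ± 0.43 and for Birc6 it was -0.71 ± 0.64, each with an edgeR adjusted p of 1.00. The unpaired fits of OPCs and of the interaction both gave fewer genes with low p than chance alone would. Whether the larger number of genes with low p in OLs is a difference between the stages was not tested.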

How the data were processed

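Per the labels, RNA was prepared from primary rat cells, and per the submitters' processing notes reads were demultiplexed with bcl2fastq 2.20, aligned with STAR 2.5.2b to Rnor_6.0 and counted with featureCounts (Subread 1.5.2). According to the methods of the study, poly(A) RNA was enriched, ERCC RNA was added and uniquely mapped reads within exons were counted. The authors deposited raw counts per gene and library, not normalized, with 92 ERCC transcripts in the same files. The gene positions of the untreated libraries of replicate 3 differ from those of the other 22 files, although the labels name 1 build, so coordinates are those of the 22 files. Symbols come from the paper's supplementary tables, which name 1957 of the 21651 shared identifiers. By their titles these hold genes significant between DMSO- and DTG-treated OLs or between DMSO-treated OPCs and OLs. The named genes and list members are therefore a selected part, chosen in comparisons that used the same DMSO-treated libraries.

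ERCC rows were dropped, low counts removed with filterByExpr, libraries scaled with TMM and each comparison of 8 libraries (or 16 for the interaction) fitted with edgeR 4.0.16's quasi-likelihood test in R 4.3.3, with Benjamini-Hochberg adjustment over all genes tested. DESeq2 1.42.0 was an alternative. CPM are TMM-scaled and fold changes are log2. The confidence level of intervals is 95%. Marker sums use unscaled CPM. Genes past 8-fold within a replicate number were counted with a pseudocount of 0.5 CPM among genes over 1 CPM in either library. Single values per library were compared with exact permutation tests. The scripts were tested on simulated data. The naming rule took every list gene with an identifier (96 of 272 genes in 16 lists), the genes the study names in its sequencing results, and per direction up to 5 genes of lowest p with 1 direction in 4 litters. Mag, Cnp and Myrf have no identifier with a symbol here and were not analysed. The comparison, lists and rule were chosen with earlier results of these data known.

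Replicate numbers were treated as litters, since the study states that replicates come from independent litters and the library names share date codes. As a check, deviations from the group means were correlated between the untreated and DMSO-treated library of the same number, across genes of near equal length. The correlations were 0.47, 0.35, 0.17 and 0.27 in OLs and 0.55, 0.52, 0.51 and 0.68 in OPCs. In OLs, replicate 3 correlated more with replicate 2 (0.25) than with its own number.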

Additional observations from a re-analysis of the deposited data

Results flagged for a closer look

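Values that stood far from the other 3 of their group were looked for among 166 groups of 4 values, and 11 (6.63%) were found, where chance gives about 1 in 20. PC1 of untreated replicate 3 was 120.3 in OLs, against -17.4 to -16.7 in the other untreated OLs, and 122 in OPCs, against -18.9 to -17.1. The same library was alone for Rpl22 (0.136 CPM), Gjc3 (8.15 CPM), Tyms (86.9 CPM) and Dennd1b (12.2 CPM) in untreated OPCs, and its annotation differs from that of the other 3. In untreated OLs, Mcm2 was low in replicate 4 (46.5 CPM against 63.0 to 64.0), Aurka was high in replicate 1 (18.4 CPM against 14.5 to 14.7) and so was Egr1 (13.5 CPM against 6.46 to 7.34). In DMSO-treated OPCs, replicate 1 was high for Dnmt1 (603 CPM against 299 to 341) and Egr1 (103 CPM against 48.1 to 54.6). Untreated OPCs of the same litter were also high for both genes, at 616 CPM for Dnmt1 and 103 CPM for Egr1.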

How the results depend on the processing

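The count of 0 called genes held in OLs, OPCs and their difference with DESeq2, DESeq2's size factors, no mitochondrial genes, other filters on low counts, near-equal identifiers, a robust fit, all 24 libraries and no minimum fold change, and with replicate 3 left out. Without a minimum fold change DESeq2 gave 1 gene in OLs, Birc6 (adjusted p = 0.0359). Scaling to ERCC counts called 49 genes in OLs, all lower, with the median of all genes moved to -0.42. Without DMSO-treated replicate 3, whose ERCC share was highest, 40 were called, and without all replicate 3 libraries 0 (both chosen after the data were seen). The replicate block alone called 0 genes in OLs, in OPCs and for their difference. With replicate 3 also left out it called 10 in OLs, 3 in OPCs and 0 for the difference, with few residual degrees of freedom.

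Alternatives added after the data were seen gave, in OLs and OPCs, 3 and 3 genes with DESeq2 and a block (52 and 3 without a minimum fold change), 0 and 0 when replicate 3 was also left out, 6 and 2 with a robust fit, block and no replicate 3, 0 and 0 with a length offset, and 4 and 3 with the length offset, block and no replicate 3. Without a minimum fold change the block without replicate 3 gave 161 and 5. With the length offset that fit gave 21 in OLs, 16 of them lower, and the 4 called in OLs were all higher. Leaving out any single library gave 0 called genes in every comparison, and leaving out 1 further litter from the blocked fit in OLs gave 0 (without replicate 2), 39 (without replicate 4) and 464 (without replicate 1). No library measure passed the threshold in any alternative. With 1 replicate left out the smallest possible exact permutation p was 0.1, and in a paired sign-flip test it was 0.125. Those settings could therefore not pass. With DESeq2's variance-stabilizing transformation, PC1 in OLs reached the smallest exact permutation p of 0.0286, with an adjusted p of 0.229. The annotation of untreated replicate 3 and 4 litters limit every comparison with untreated cells.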

Other observations

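In the blocked fit without replicate 3, the 5 genes called higher in OLs had no symbol, and 3 of these were also the 3 called lower in OPCs, although 0 genes were called for a difference between stages. Of the 5, ENSRNOG00000017786, named after its values were seen, was at 3.24, 3.05, 3.76 and 9.94 CPM in untreated OLs and at 12.8, 35.3, 2.94 and 2.49 CPM in DMSO-treated OLs. It was not among the 3 called in OPCs, where its log2 fold change in that fit was -0.93. In OPCs it was at 31.2, 3.54, 3.67 and 17.2 CPM untreated and at 17.4, 4.11, 4.26 and 4.54 CPM with DMSO. The high values fell on replicates 1 and 4 of untreated OPCs, replicate 1 of DMSO-treated OPCs and replicates 1 and 2 of DMSO-treated OLs, and the groups overlapped at both stages.

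Fat1, a cadherin, was at 228, 191, 152 and 317 CPM in untreated and 176, 143, 85.0 and 173 CPM in DMSO-treated OLs, and at 452 to 800.2 CPM in untreated OPCs. Macf1 was at 80.7, 125, 68.8 and 89.5 CPM untreated and 68.5, 70.2, 48.2 and 53.2 CPM with DMSO in OLs, and at 86.7 to 358 CPM in untreated OPCs. Within genes over 6000 bases in OLs, those higher in OPCs (354 genes) had a median log2 fold change of -0.38, those of neither stage class (453) one of -0.25 and those higher in OLs (76) one of -0.08. Among genes of up to 1000 bases these medians were -0.02, 0.16 and 0.20, so length and stage class each went with the ratio. The 2 features were not tested against each other.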
